A study of Mus musculus with 2 samples.

Results

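The AP-1 and immediate-early genes described here are 10 mouse genes: Fos, Fosb, Fosl1, Fosl2, Jun, Junb, Jund, Atf3, Egr1 and Gadd45b. They were chosen from what they are known to do, with earlier results of these 2 arrays in view, so their differences are given as a description and carry no test. Every probe whose gene name on the array equals a member was kept, which gave 11 probes for the 10 genes, out of 25851 genes with a detected probe in all. RNA was compared between 2 cultures derived from the embryonic stem (ES) cell line E14Tg2A of mouse strain 129/Ola. EpiSC (epiblast stem cells) were obtained by giving ES cells FGF2 at 12 ng/mL and Activin A at 20 ng/mL in chemically defined minimal medium. ELA-EpiSC received the same factors in the same medium, but started from Epiblast-Like Aggregates (ELA), which ES cells form once serum and LIF are withdrawn and which were dissociated before culture. Each group is 1 array of RNA pooled from 3 independent experiments, so no value has a replicate and no difference between the groups can be tested. The source field names an Argonaute immunoprecipitate for the EpiSC sample and total RNA of undifferentiated cells for the ELA-EpiSC sample, whereas title, description and molecule name total RNA of the 2 groups. The titles were followed, and every difference below rests on them.

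AP-1 is a family of dimers, in which a Jun protein pairs with another Jun protein, a Fos protein or a relative such as Atf3 through a leucine zipper and binds short palindromic sites in DNA. Fos, Fosb, Jun, Junb, Atf3, Egr1 and Gadd45b are immediate-early or early response genes, whose transcription starts within minutes of a growth factor, stress or serum signal and needs no new protein synthesis. FGF2, which both cultures received, acts through the ERK kinase cascade, which phosphorylates the partners of serum response factor at the promoters of Fos and Egr1. Fosl1, Fosl2 and Jund are transcribed on a slower or steadier course, and Fosl1 and Fosl2 are themselves induced by earlier AP-1 proteins.

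The promoters of 5 members are shown, each with a match to a motif searched below. They are the 250 bases before the transcription start in RefSeq on assembly GRCm38.p6, read 5′ to 3′ on the strand of the gene, and capitals mark the motif matches described after them. Entries for 8 of the 10 members were used, without Fosl1 and Egr1.
Fos (chr12:85473640-85473889, plus strand): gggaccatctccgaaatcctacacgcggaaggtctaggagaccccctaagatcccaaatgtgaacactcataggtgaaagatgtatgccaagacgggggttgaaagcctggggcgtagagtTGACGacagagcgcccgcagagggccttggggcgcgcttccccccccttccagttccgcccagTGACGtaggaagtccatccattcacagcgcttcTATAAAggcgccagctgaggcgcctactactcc
Jun (chr4:95052223-95052472, minus strand): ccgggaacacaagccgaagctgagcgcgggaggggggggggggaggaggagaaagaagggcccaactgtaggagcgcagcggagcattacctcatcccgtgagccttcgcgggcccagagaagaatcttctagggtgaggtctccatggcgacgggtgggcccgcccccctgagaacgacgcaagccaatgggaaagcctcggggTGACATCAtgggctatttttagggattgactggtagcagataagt
Junb (chr8:84978749-84978998, minus strand): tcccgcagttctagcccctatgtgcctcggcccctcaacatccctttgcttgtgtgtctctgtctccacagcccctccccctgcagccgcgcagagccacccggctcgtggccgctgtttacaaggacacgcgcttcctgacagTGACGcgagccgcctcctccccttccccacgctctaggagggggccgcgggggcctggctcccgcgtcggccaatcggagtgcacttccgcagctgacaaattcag
Atf3 (chr1:191183334-191183583, minus strand): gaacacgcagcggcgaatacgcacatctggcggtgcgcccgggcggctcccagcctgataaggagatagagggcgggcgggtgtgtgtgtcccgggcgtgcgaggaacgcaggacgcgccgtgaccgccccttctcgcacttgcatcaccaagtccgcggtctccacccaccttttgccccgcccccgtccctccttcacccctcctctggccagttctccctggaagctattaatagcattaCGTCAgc
Gadd45b (chr10:80929841-80930090, plus strand): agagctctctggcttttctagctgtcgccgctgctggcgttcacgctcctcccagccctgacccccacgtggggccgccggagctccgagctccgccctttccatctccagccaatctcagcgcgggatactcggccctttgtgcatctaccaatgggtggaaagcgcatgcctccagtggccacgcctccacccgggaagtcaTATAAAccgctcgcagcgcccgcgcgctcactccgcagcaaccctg

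On both strands of these windows, 6 motifs were searched: the CArG box bound by serum response factor, the cyclic AMP response element (CRE) TGACGTCA, the CRE half-site TGACG that is contained in it, the AP-1 site TGACTCA, the Jun-type AP-1 site TGACATCA and the TATA box TATAAA. The Jun-type site was added after the sequences had been read. The half-site was found in 4 of the 8 members and in 17.8% of all 32851 promoter windows of that length. Fos held it at positions -129 to -125 and -66 to -62 before the start, Fosb at -60 to -56, Junb at -106 to -102, and Atf3 on the opposite strand at -7 to -3. A TATA box was found in Fos at -33 to -28 and in Gadd45b at -46 to -41, against 12.4% of all windows. The Jun promoter held the Jun-type site at -45 to -38, a sequence present in 2.93% of windows. CArG box, whole CRE and AP-1 site were found in 0 of the 8 members, against 1.47%, 1.55% and 4.46% of all windows, which says only that these letters are not in this stretch. Whether the half-site bears on the differences between the arrays, given further on, was not tested.

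Each array carried 62976 spots, and 36645 of the 55681 probes for mouse transcripts were well above background with EpiSC RNA and 36206 with ELA-EpiSC RNA. All 11 member probes were well above background on both arrays, with 0 saturated and 0 marked spots. Levels are mean spot intensities corrected for background, brought to a common distribution by quantile normalization and taken as log2, and every difference is the log2 level of ELA-EpiSC minus that of EpiSC, so that 1 is a doubling. The only error these data give is that between spots of 1 probe on 1 array: over 312 probes printed 10 times the SD had a median of 0.13 in EpiSC and 0.16 in ELA-EpiSC, which covers neither labelling nor culture. All 10 epiblast markers were detected on both arrays, with differences of -0.84 to 0.61 on their brightest probes and a median of 0.08. That median was -0.24 with the processed signal and 0.62 with the spike-in probes set equal. The 3 probes of Dnmt3b ran from -1.11 to -0.84. Their summed intensity in ELA-EpiSC was 0.904 times that in EpiSC. Dnmt3b, the brightest of them with levels of 17.07 in EpiSC and 16.24 in ELA-EpiSC, weighs most in that sum.

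Markers of other cell types differed between the arrays too. For comparison, 3.39% of all 25851 genes with a detected probe were higher in ELA-EpiSC past 1 and 3.34% lower. Of 10 ground-state ES markers 8 were detected on both arrays, Dppa3 on the EpiSC array alone and Prdm14 on neither. Of the 8, 4 were lower in ELA-EpiSC past 1, down to -3.75 for Tbx3, and 2 were higher at all, up to 0.43 for Esrrb. The median of the 8 was -0.87, and the summed intensity of the list was 0.469 times that of EpiSC. Of 10 visceral endoderm markers 8 were detected on both arrays and 2 were lower past 1, Hnf4a at -5.12 and Amn at -2.75. Another 3 were higher at all, up to 0.55 for Apob, and the median of the 8 was -0.50. Apoa1 and Ttr were detected on the EpiSC array alone, and the summed intensity was 0.573 times that of EpiSC. Of 12 fibroblast and mesenchymal markers 10 were detected on both arrays, with a median of 0.47 and a low of -0.33 for Dcn. Of the 10, 4 were higher past 1, Col1a1 at 3.72, Twist2 at 2.92, Col3a1 at 1.88 and Pdgfra at 1.77. The summed intensity was 1.73 times that of EpiSC, Postn was detected on the ELA-EpiSC array alone and Lum on neither. Among 5 heat shock genes, read on their brightest probes, Hspb1 was higher at 1.15 and 0 were lower past 1. Their median was -0.23 with 2 of 5 higher at all, down to -0.82 for Dnajb1. The summed intensity was 1.11 times that of EpiSC. The 3 probes of Hspa8 ran from -1.39 to -0.23, the last being the brightest. The difference of Hspb1 was within 1 with the processed signal and with scaling to the 75th percentile. The part of these markers in the member differences was not tested. In RNA from whole cultures, fewer cells that express a gene and less RNA per cell cannot be told apart.

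The members did not share a direction. Atf3, Gadd45b, Egr1, Junb and Fosl2 were higher in ELA-EpiSC past 1, Fosl1 and Jund were higher by less, and Fos and Fosb were lower by less than 1. Jun was also lower by less than 1 in these values, but its sign depended on the scaling. Thus 5 of the 10 members were higher past 1 and 0 were lower past 1, while among all 16649 genes with a mean level of at least 7.5 the shares were 4.54% higher and 4.46% lower. The median of the 10 differences was 1.13, against 0.00 for all those genes, of which 50.2% were higher in ELA-EpiSC at all. Of the members, 9 reached that mean level and Fosl1 did not. With no minimum on the level, 3.39% of 25851 genes were higher and 3.34% lower past 1.

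**Figure D1:**
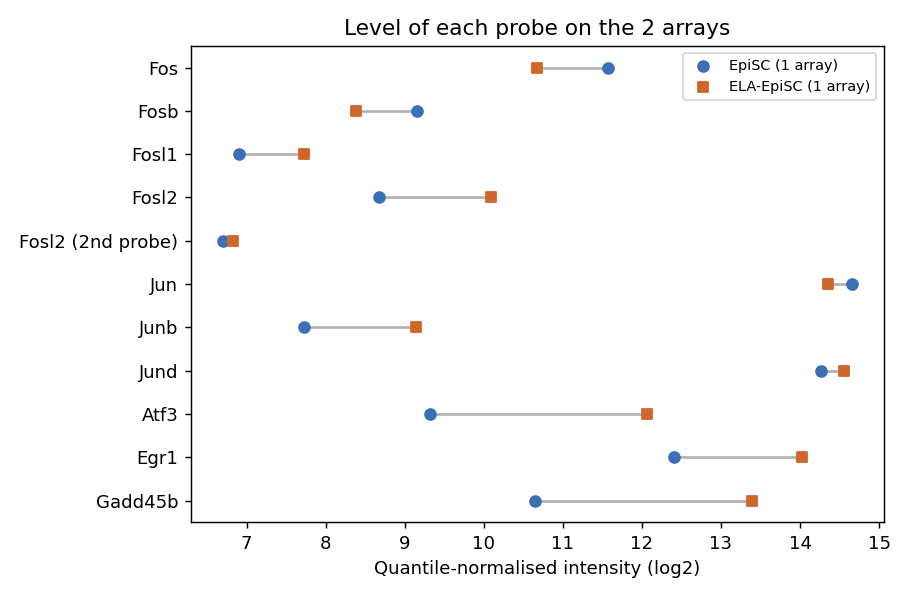
Quantile-normalised log2 intensity (x axis) of the 11 member probes (rows) on the EpiSC array (blue circles) and the ELA-EpiSC array (orange squares), 1 array each and without error bars. The long lines of Atf3 and Gadd45b run from a lower EpiSC level to a higher ELA-EpiSC level, those of Fos, Fosb and Jun run the other way, and the 2 marks of the second Fosl2 probe nearly touch.

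Fos encodes the founding member of the Fos family, which cannot pair with itself and needs a Jun partner to bind DNA. Its probe (mm9 chr12:86817900-86817959) was printed in 10 spots on each array, the only member measured that way. The mean spot signal lay between 2522 and 2969 intensity units on the EpiSC array, with a median of 2766, and between 1549 and 2007 on the ELA-EpiSC array, with a median of 1805. The 2 sets of spots did not overlap, and every Fos spot was brighter on the EpiSC array. After normalization the EpiSC level was 11.57 and the ELA-EpiSC level 10.67, which gives a difference of -0.90, or 1.87-fold more in EpiSC. Spot by spot the difference ran from -1.03 to -0.72 with an SD of 0.11 (n = 10 spots of 1 array per group), so spot noise is small against it, while the spread between cultures is unknown. Of all genes with the minimum level, 5.31% lay further toward EpiSC than Fos.

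**Figure D2:**
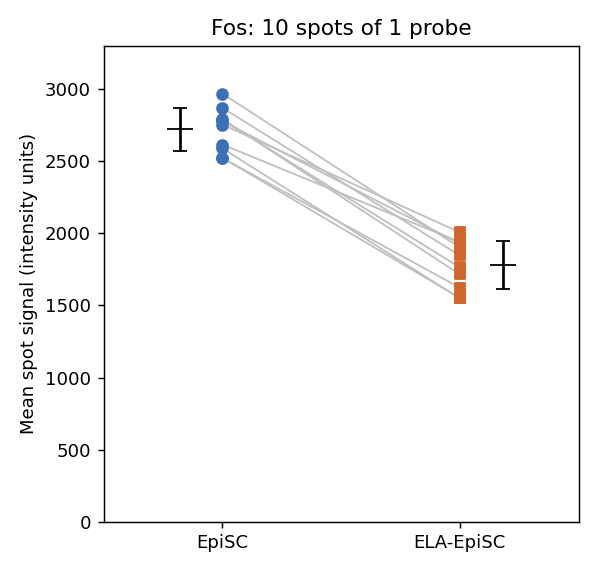
Mean signal in intensity units (y axis, from 0) of the 10 spots of the Fos probe on the EpiSC array (blue circles) and the ELA-EpiSC array (orange squares), with lines joining the paired spots and, beside them, the mean with bars of 1 SD over spots. All EpiSC spots lie at or above 2522 and all ELA-EpiSC spots at or below 2007, and the SDs of 151 and 167 measure spot noise within 1 array.

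Fosb is the relative closest to Fos in its response to stimuli. Its probe (mm9 chr7:19888168-19888227) gave a mean spot signal of 487 intensity units with EpiSC RNA and 333 with ELA-EpiSC RNA. The levels were 9.16 and 8.39, a difference of -0.77, or 1.70-fold more in EpiSC, and 1166 of the 16649 genes lay further toward EpiSC. Fos and Fosb, which encode the transactivating Fos proteins, therefore both had dimmer probes in ELA-EpiSC, though neither difference passed 1.

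Fosl1 and Fosl2 encode Fra-1 and Fra-2, which bind DNA with Jun partners but lack the strong activation domain of Fos. The Fosl1 probe (mm9 chr19:5455496-5455555) gave 82.2 intensity units with EpiSC RNA and 189 with ELA-EpiSC RNA. Its levels of 6.90 and 7.73 differ by 0.83, or 1.78-fold, whereas the raw signals differ 2.30-fold, because the offset added in background correction compresses differences of dim probes. Fosl1 passed 1 in 6 of 12 other ways of processing the arrays, between 0.67 and 1.48.

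The brighter Fosl2 probe (mm9 chr5:32460076-32460135) gave 337 intensity units in EpiSC and 1178 in ELA-EpiSC. The levels were 8.67 and 10.10, a difference of 1.42, or 2.68-fold, and 2.30% of genes had a larger one. A second Fosl2 probe gave only 66.6 and 81.0 intensity units, with levels of 6.69 and 6.83 and a difference of 0.13, similar in size to the spot SD of 0.11 for differences at such levels. The Fosl2 probes thus disagree, and their mean is 0.78, below 1. Of the 11 member probes, 8 share no run of 15 bases with a probe of another gene name; the second Fosl2 probe and the Junb probe are shown with the longest shared run in capitals (17 and 16 bases), read 5′ to 3′ on the strand of the gene. The Fosl1 probe also shares a run of 17 bases.
Fosl2 second probe (mm9 chr5:32455088-32455147, plus strand): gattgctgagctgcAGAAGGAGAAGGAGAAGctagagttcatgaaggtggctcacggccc
Junb probe (mm9 chr8:87501881-87501940, minus strand): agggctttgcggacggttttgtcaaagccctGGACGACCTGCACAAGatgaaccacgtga

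Jun encodes the strongest activator of the Jun proteins, able to pair with itself and to act on its own promoter. Its probe (mm9 chr4:94716928-94716987) gave mean spot signals of 25224 intensity units in EpiSC and 21939.9 in ELA-EpiSC. The levels were 14.66 and 14.35, a difference of -0.31. The sign of this difference turned to 0.23 when the arrays were scaled to their spike-in probes, so its direction depends on the scaling and is not settled.

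Junb is an immediate-early member that can oppose Jun in transcription and is also known in growth control. The Junb probe shown above gave 168 intensity units in EpiSC and 594 in ELA-EpiSC. Its levels of 7.72 and 9.14 differ by 1.42, or 2.68-fold, with 2.28% of genes having a larger difference. Jund, the steadily transcribed Jun gene, had a probe (mm9 chr8:73224436-73224495) with 18534 and 25058 intensity units. Its levels were 14.26 and 14.55, a difference of 0.29, or 1.22-fold, and it stayed between 0.15 and 0.83 over the other settings. Of the Jun genes, Junb alone was past 1 in these values.

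Atf3 encodes a stress-inducible factor of the ATF/CREB class that pairs with Jun proteins and, as a homodimer, represses transcription. Its probe (mm9 chr1:192994547-192994606) gave 548 intensity units in EpiSC and 4693 in ELA-EpiSC. The levels were 9.32 and 12.07, a difference of 2.75, or 6.71-fold. Over all genes with the minimum level, 44 (0.264%) had a larger difference toward ELA-EpiSC. The difference stayed between 2.72 and 3.28 in the 12 other settings.

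Egr1 encodes a zinc finger factor induced through ERK and serum response factor, outside the AP-1 family. Its probe (mm9 chromosome 18, 35024395 to 35024454) gave 4897 intensity units in EpiSC and 17637 in ELA-EpiSC, with levels of 12.41 and 14.02. The difference of 1.61 is 3.05-fold, and 1.66% of genes had a larger difference. It lay between 1.55 and 2.15 in the other settings.

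Gadd45b encodes a small acidic protein that binds stress kinases and takes part in growth arrest, and it is transcribed early after TGF-beta family and stress signals. Its probe (mm9 chr10:80394367-80394426) gave 1402 intensity units in EpiSC and 11633 in ELA-EpiSC. The levels were 10.64 and 13.39, a difference of 2.75, or 6.73-fold, and 41 genes (0.246%) had a larger one. Gadd45b and Atf3 were the 2 members past 2.5, a size passed toward ELA-EpiSC by 0.402% of genes.

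In the order of their differences, neighbours were set against the spot error of both values combined. Gadd45b and Atf3 differ by 0.005 against an error of 0.14, and Junb and Fosl2 by 0.003 against 0.15, so neither pair can be ordered. Egr1 lies 0.19 above Junb against an error of 0.15, and Fosb 0.14 above Fos against 0.11, which is little beyond spot noise. The remaining neighbours are 0.46 to 1.14 apart, well beyond it. With 2 arrays, no other gene can be called alike in pattern.

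**Figure D3:**
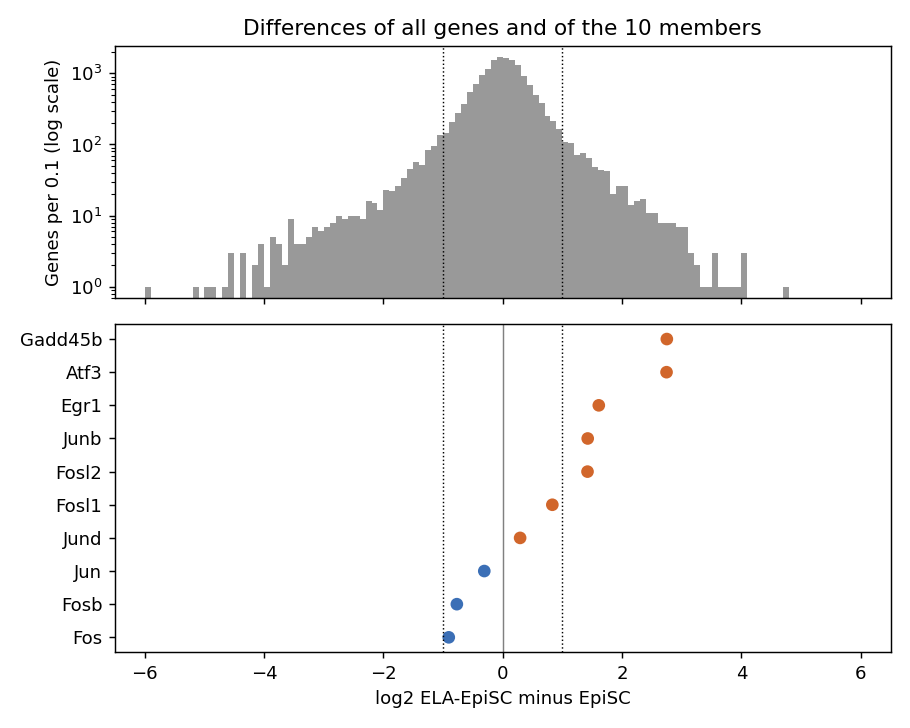
Top: number of genes per 0.1 of log2 difference, on a log count axis, for the 16649 genes with a mean level of at least 7.5. Bottom: the difference of each member (orange, higher in ELA-EpiSC; blue, higher in EpiSC), with dotted lines at 1 and -1; 5 members lie beyond 1 and 0 beyond -1, and Gadd45b and Atf3 reach the thin right tail.

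Scaling to the spike-in probes moved all members by the same amount, and the other settings moved them unequally. The 8 detected spike-in probes, which report control RNA added at labelling, had a mean difference of -0.54 (from -0.86 to -0.26), and setting them equal adds 0.54 to every difference. Under that scaling Fos lay at -0.37 and Fosb at -0.23. Atf3, Egr1, Junb and Gadd45b were past 1 in all 12 other settings and Fosl2 in 11, the exception being the mean of its probes, while Fos, Fosb, Jun and Jund passed 1 in either direction in 0.

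**Figure D4:**
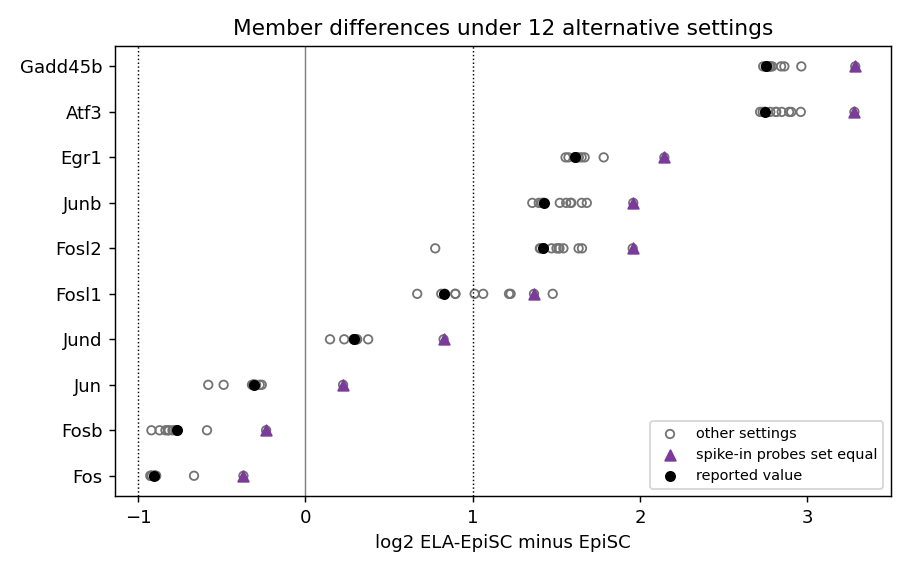
Difference of each member (x axis, log2 ELA-EpiSC minus EpiSC) as reported (black), under spike-in scaling (purple triangles) and under the other settings (open circles). Purple triangles sit 0.54 to the right of the black points, which carries Jun across 0, and Fosl1 straddles 1.

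The genes around the members were read from lists of known function, from which the members were removed, by the genes detected on both arrays. The lists overlap, and a shared gene counts in each, so their counts are not independent. Dusp1, Maff, Egr2, Egr3, Srf, Klf2 and Klf4 are in the immediate-early list and in another list. Creb1 is in the bZIP and the upstream list. Their counts use no minimum level: Ptgs2, Mmp9, Batf and, among the markers above, Col3a1 have a mean level under 7.5, and with that minimum the counts past 1 of their lists are 14 and 5 higher, 1 lower and 3 higher in that order. Without a minimum, 3.39% of 25851 genes were higher in ELA-EpiSC past 1 and 3.34% lower, to be set beside every list count below. Those genes were detected on at least 1 array. Of 44 other immediate-early and early response genes, 15 were higher in ELA-EpiSC past 1 and 1 lower, with a median of 0.75 and 35 higher at all. The largest were the transcriptional repressor Bhlhe40 (2.66), the kinase Pim1 (2.37), the matricellular proteins Cyr61 (2.18) and Ctgf (1.63), the prostaglandin synthase Ptgs2 (1.52) and the EGF receptor ligand Hbegf (1.49), and the orphan nuclear receptor Nr4a2 was lower at -1.03. Egr3 was detected on the EpiSC array alone and Nr4a3 on neither. The lower levels of Fos and Fosb therefore stand beside a list in which most genes had a higher level in ELA-EpiSC.

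Of 19 other bZIP genes, possible partners of Fos and Jun proteins, 4 were higher past 1 and 2 lower, with a median of 0.21. Jdp2, a repressor that pairs with Jun proteins, was higher by 2.51, from a level of 9.98 to 12.49, followed by Maff (1.32), Atf5 (1.28) and Batf3 (1.12). Maf (-1.61) and Batf (-1.05) were lower. Jdp2 is thus the bZIP gene outside the 10 members with the largest difference in this list.

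The 24 upstream kinases, serum response factor and its partners had a median of 0.07, with 1 gene higher past 1 and 2 lower. Elk3, a ternary complex factor that represses in resting cells, was 1.76 on its brightest probe, but its probes ran from -0.00 to 1.76. Mapk10 and Map2k6, kinases of the JNK and p38 cascades, were lower at -1.39 and -1.18. Of 14 MAP kinase phosphatases, Sprouty and Spred genes, which restrain MAP kinase or growth factor signalling, 4 were higher past 1 and 0 lower, with a median of 0.74 and 13 higher at all. They were the phosphatases Dusp2 (1.83), Dusp6 (1.49), Dusp4 (1.23) and Dusp1 (1.12). These kinase messages say nothing of kinase activity, which the arrays do not measure.

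Among 17 known AP-1 target genes, 11 were detected on both arrays, and 6 of them were higher past 1 and 1 lower, with a median of 1.14. Those higher were the intermediate filament gene Vim (2.53), the secreted phosphoprotein Spp1 (1.78), the gelatinase Mmp9 (1.54), the urokinase receptor Plaur (from a level of 10.81 to 12.31), the hyaluronan receptor Cd44 (1.16) and the cell cycle gene Ccnd1 (1.14), and the metallothionein Mt1 was lower at -1.28. Plau was detected on the ELA-EpiSC array alone, and Mmp1a, Mmp3, Mmp10, Mmp13 and Il6 were not well above background on either. Vim and Spp1 are also expressed by mesenchymal cells, of whose 10 markers detected on both arrays 4 were higher past 1. The part of such cells in this list was not tested. The summed intensity of the list was 0.818 times that of EpiSC, the opposite direction to its median. Mt1, the brightest gene of the list, weighs most in that sum, with levels of 17.37 in EpiSC and 16.09 in ELA-EpiSC. The ratio therefore does not describe the other genes of the list.

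**Figure D5:**
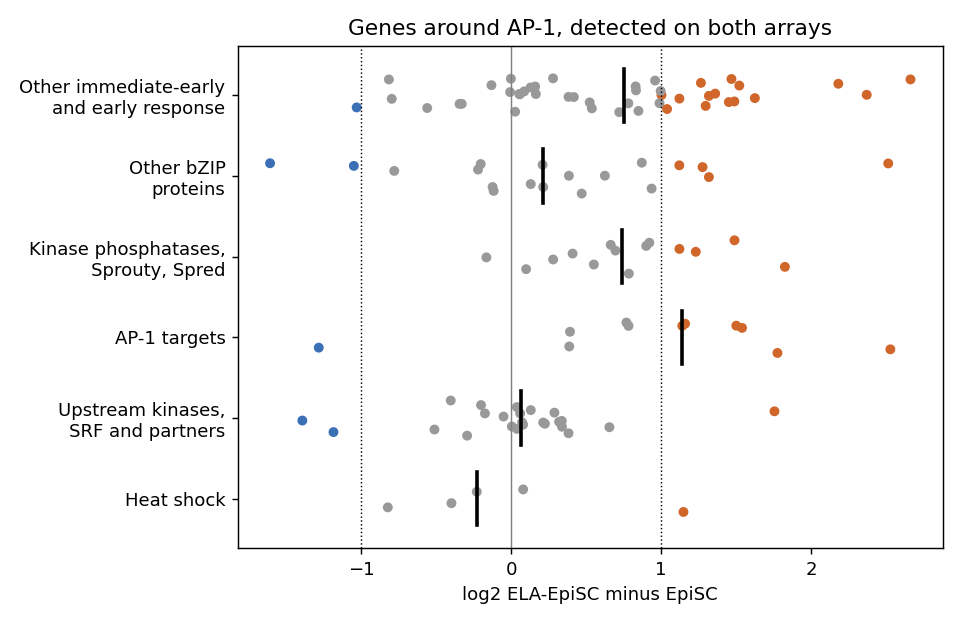
Difference of each gene detected on both arrays (points; x axis, log2 ELA-EpiSC minus EpiSC) in 6 gene lists (rows), orange past 1, blue past -1, grey between, with black bars at the median. The medians lie at 1.14 for AP-1 targets, 0.75 for other immediate-early genes, 0.74 for the phosphatase and Sprouty list and near 0 for the upstream kinases.

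Around Egr1, its corepressor Nab2 was 2.24 on its brightest probe, with its probes from 0.36 to 2.24, its relative Egr2 was 1.36, and the corepressor Nab1 was 0.64. Around Gadd45b, Gadd45a was 2.08, while the median of the 6 genes of that family and its partners was -0.01 and 0 were lower past 1. Gadd45g, named like Nab1 after its value was seen, was -0.50, a size that the spike-in scaling cancels. Under spike-in scaling the medians of these lists were higher throughout, up to 1.90 for the Egr1 list, and the Gadd45 list turned to 0.52, the visceral endoderm list to 0.03 and the heat shock list to 0.31. The counts moved with it. Higher past 1 were 25 other immediate-early genes, 10 phosphatase, Sprouty and Spred genes, 8 bZIP genes and 8 AP-1 targets. The upstream list had 2 higher and 0 lower, and 2 ground-state markers were lower. Among the 16649 genes with a mean level of at least 7.5, 2482 were higher past 1 under that scaling and 306 lower. The list counts use no such minimum, so the 2 sets of genes are not matched. The median of those genes was then 0.54.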

How the data were processed

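Total RNA of 1 EpiSC and 1 ELA-EpiSC pool was labelled with Cy3 and hybridized to 1-colour Agilent arrays. The authors deposited scanner files with linear spot intensity, made with Feature Extraction 10.7.3.1 per the file headers and not normalized, with probe positions on mm9. A table of log2 values per probe, also deposited by the authors, is background-corrected and quantile normalized per their methods; it served as an alternative, and its differences correlated across probes at 0.890 with those used here, and at 0.997 with median signal at an offset of 0. Its column medians are 6.38 and 6.38, and the offset of its correction is not given in the sources used here.

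Mean spot signal and median local background were corrected by normexp with an offset of 50 (limma 3.58.1, R 4.3.3). Control spots and marked spots (158 and 117) were left out, arrays were quantile normalized in log2 and spots of a probe averaged. Probes counted as detected where at least 0.5 of their spots were well above background. A gene took its brightest detected probe. Scripts were tested on simulated data. With 1 array per group there is no test, and a difference past 1 at a mean of at least 7.5 is counted, without replicate support; for gene lists the minimum was not applied.

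Members and lists were chosen with earlier results of these data known. Named were all members and, per list and direction, up to 6 genes past 1. In the AP-1 target list, 1 gene is not reported here and was left out of its values. Promoter sequences are from RefSeq (GRCm38.p6) and were not joined to mm9 positions. Exon and UTR positions of probes were not analysed here. Both arrays share a slide and a scan, so neither can differ between the groups. The other settings covered the offset, the background correction, the scaling, the marked spots, the choice of probe, the minimum level and the threshold.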

Additional observations from a re-analysis of the deposited data

How the results depend on the processing

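The count of 5 members higher past 1 stayed between 4 and 6 in all alternatives run: Fosl2 left it with the mean of its probes, and Fosl1 joined it with the deposited values, without background correction, with offsets of 0 and 16, with the processed signal, with spike-in scaling and at 1.5-fold. At 1.5-fold, 2 members were lower in ELA-EpiSC, Fos and Fosb. The share of all genes past 1.5-fold was not counted in either direction, so the member counts at 1.5-fold have no background to be read against. Of the 16649 genes, 1166 lay further toward EpiSC than Fosb, so a place past 1.5-fold on that side is not rare. The median of the members, 1.13 as reported, was 0.80 with the mean of all probes, 1.01 at the 75th percentile, 1.24 with median scaling, 1.26 without background correction, 1.28 with an offset of 16, 1.37 in the deposited values, 1.38 with an offset of 0, 1.53 with the processed signal and 1.66 with spike-in scaling. Of the 16649 genes, 2482 were higher past 1 and 306 lower with spike-in scaling. At a minimum level of 9, 481 genes were lower. Spike-in scaling adds 0.54 to every difference, and median scaling moved the median of all genes to 0.15. The sign of Jun was the only member sign that turned in these alternatives. No paired analysis was possible because there is just 1 array on either side. All members were detected on both arrays. The number of arrays limits the precision, and Fosl1, with signals of 82.2 and 189 intensity units, ran from 0.67 to 1.48 over the settings.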
